A study of Mus musculus with 15 samples.

Results

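The guidance cues and their receptors were read in cultured murine lymphatic endothelial cells (LECs) on arrays. They comprise every probe set whose single annotated gene symbol is a semaphorin, plexin, ephrin, Eph receptor, Slit, Robo, netrin or Unc5 receptor, 63 probe sets for 63 genes among the 22206 probe sets (19505 gene symbols) measured. They divide into 33 ligands (7 class 3 semaphorins, 12 semaphorins of classes 4 to 7, 8 ephrins, 3 Slits and 3 netrins) and 30 receptors (9 plexins, 9 EphA, 4 EphB, 4 Robo and 4 Unc5 receptors). The samples were 5 arrays of saline-treated cells, 5 of cells given angiotensin II (Ang II) at 500 nM for 12 h and 5 of cells given it for 24 h. The cells were bought and grown in serum-containing medium, and the labels call them a cell line, while the study's text calls them primary. The labels do not say at which time the saline cells were harvested, so Ang II and time in culture cannot be told apart. All values are log2 expression values after robust multi-array averaging (RMA), and a difference of 1 is a 2-fold change.

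Guidance cues were first described on growing axons and also steer endothelial cells. Class 3 semaphorins are secreted, and most of them bind neuropilins, which pair with plexins, while membrane semaphorins bind plexins directly. Ephrins are held on the cell surface and signal to Eph receptors on the neighbouring cell, and can signal back into their own cell. Slits bind Robo receptors, and netrins bind Dcc and Unc5 receptors. In lymphatic vessels, class 3 semaphorin signaling through plexin A1 and the reverse signaling of ephrin-B2 are known for their part in valve formation, and EphB4 is the receptor of ephrin-B2.

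The expression of the family was compared across the 3 groups to see whether Ang II, applied as a stimulus of proliferation and migration, changed any cue or receptor. None of the 63 genes passed an adjusted p of 0.05 at either time. The largest mean differences at 24 h were those of Unc5d and Epha4, both receptors and both lower with Ang II, and at 12 h those of Sema4g, Unc5d and Sema5b. In limma, with Benjamini-Hochberg adjusted values across the whole array, 0 members were called at 12 h (background of all probe sets 0%), 0 at 24 h (background 0.018%), 0 between 24 h and 12 h (background 0.0225%, made up of 0.00901% higher and 0.0135% lower) and 0 in the F test over the 3 groups (background 0.0225%). The smallest adjusted p of a member was 0.307, for Unc5d at 24 h. Members with an unadjusted p under 0.05 are called listed from here on, as a description that does not pass the test. At 12 h 4 of 63 members were listed (6.35%, against 4.91% of all probe sets), 2 higher (background 2.51%) and 2 lower (background 2.4%). At 24 h 4 were listed (6.35%, against 7.1%), 2 higher (background 3.64%) and 2 lower (background 3.46%). Between 24 h and 12 h 1 member was listed as higher and 0 as lower (1.59%, against 5.99%, with backgrounds of 3.07% higher and 2.92% lower), and the F test listed 2 (background 6.25%). Duncan's multiple range test, which the study's methods name, called 0 members after adjustment and listed 4 at 12 h, 3 at 24 h and 1 between the times before it. The share of all probe sets listed by Duncan's test was not taken, so these counts have no background. The limma shares at 12 h and 24 h lie near the background. A bulk array cannot tell fewer cells of a type from less RNA per cell, and with nothing in the labels on separate cultures, the p-values measure the spread between these 15 arrays, which may be technical.

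The intervals give the size of difference that remained possible on the scale of the array values. That scale is a limit, since 56 of 63 members had a mean at or below a mark of low signal, defined further down. Of the listed members, Epha4 alone was above that mark. For members at or below it, the intervals bound the array values and need not bound the change in RNA. The log2 fold changes of the members ran from -0.46 to 0.51 at 12 h and from -0.66 to 0.49 at 24 h. The 95% interval of the fold change lay within 2-fold in either direction for 63 of 63 members at 12 h and for 62 at 24 h, where Epha4 was the exception. Within 1.5-fold it lay for 49 members at 12 h and 48 at 24 h. Across all 22206 probe sets, 21914 at 12 h and 21813 at 24 h lay within 2-fold. Within 1.5-fold lay 15268 of them at 12 h and 14568 at 24 h. The median size of a member's difference was 0.12 at 12 h and 0.11 at 24 h, beside 0.12 and 0.13 over all probe sets.

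**Figure D1:**
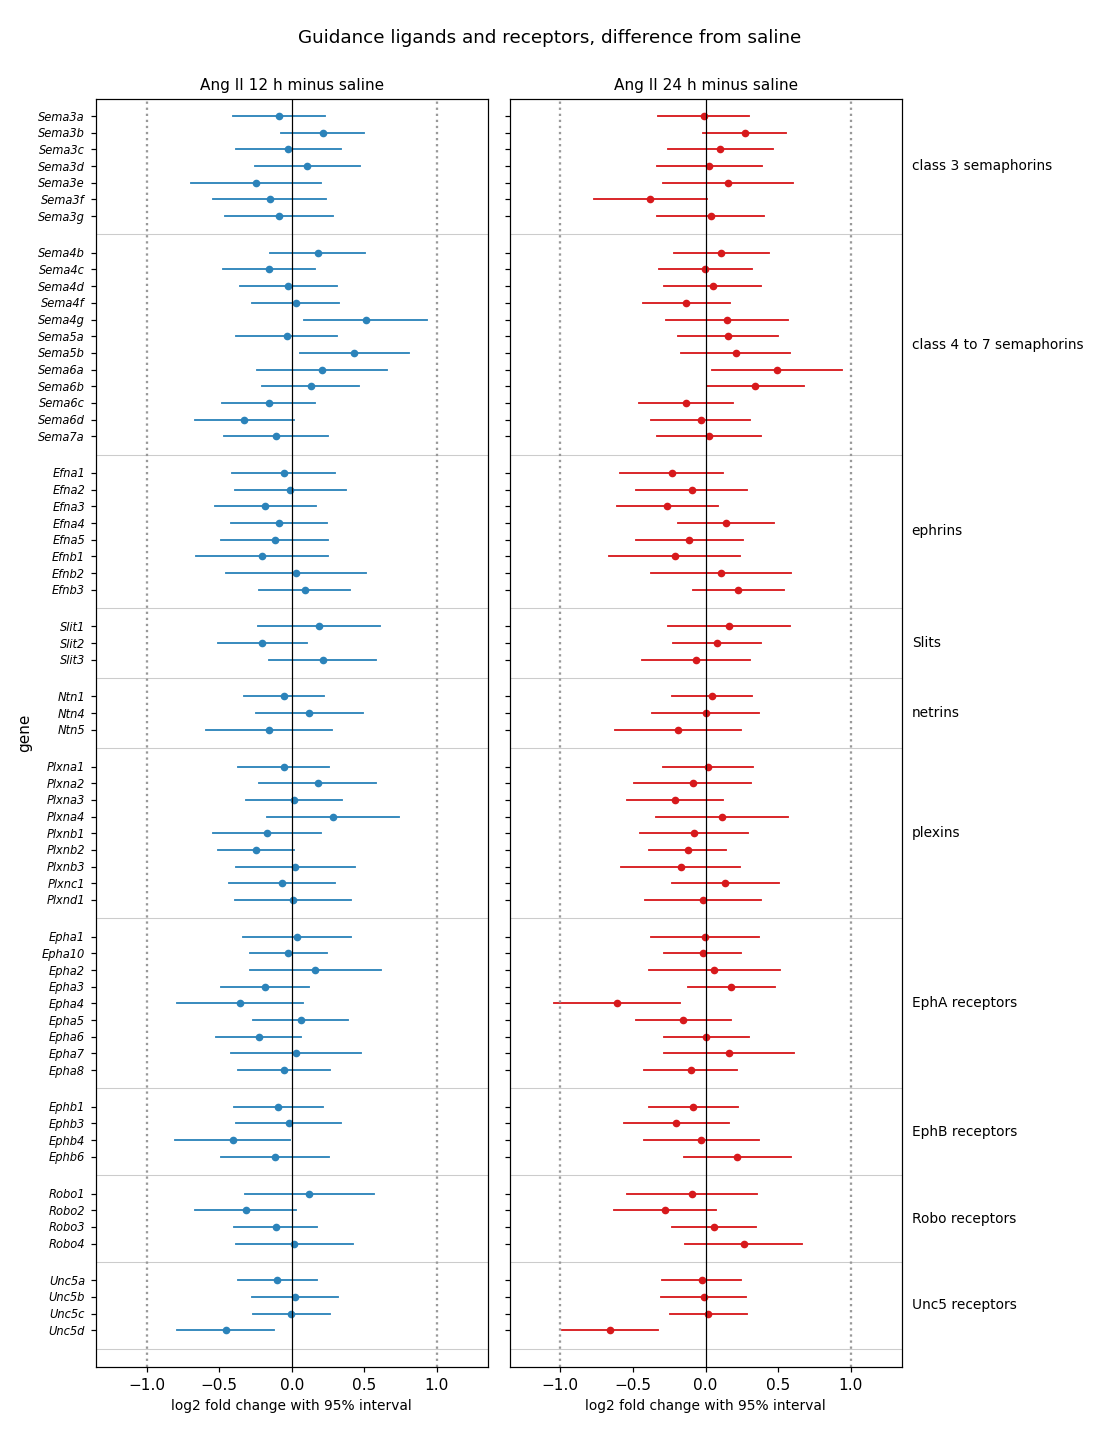
Log2 fold change (x axis) of each of the 63 guidance genes at 12 h and at 24 h of Ang II against saline, by family, with 95% intervals from limma. No gene passed an adjusted p of 0.05, and Unc5d and Epha4 have the lowest values at 24 h.

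Unc5d, a member of the Unc5 family of netrin receptors, had the smallest p of the members at both times. It read 5.45, 5.79, 5.48, 6.05 and 5.57 on the saline arrays, 5.36, 5.24, 5.25, 5.31 and 4.90 at 12 h and 5.14, 5.05, 4.59, 4.97 and 5.30 at 24 h. All Ang II arrays of both times lay below all saline arrays. The means were 5.21 ± 0.18 at 12 h against 5.67 ± 0.25 in saline cells (SD, n = 5 each), a log2 fold change of -0.46 (SE 0.16, adjusted p = 0.966). At 24 h the mean was 5.01 ± 0.26 and the log2 fold change -0.66 (SE 0.16, 95% interval -0.99 to -0.33, adjusted p = 0.307). The difference between 24 h and 12 h was -0.20 and was not listed. The unadjusted p stayed under 0.05 in each of 26 other settings at both times, from 0.000299 to 0.00224 at 24 h, where the adjusted p ran from 0.218 to 0.652.

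Epha4, a receptor for ephrins of both the A and the B group, was listed at 24 h. Its values were 7.47, 7.48, 8.62, 7.56 and 7.42 on the saline arrays, 7.35, 7.18, 7.34, 7.76 and 7.15 at 12 h and 6.78, 7.41, 6.89, 7.33 and 7.10 at 24 h. Every 24 h array was below every saline array, and the saline array of replicate 3 was highest at 8.62, with the next at 7.56. The 24 h mean was 7.10 ± 0.27 and the saline mean 7.71 ± 0.51, a log2 fold change of -0.61 (SE 0.21, 95% interval -1.04 to -0.17, adjusted p = 0.563). Without that saline array the 24 h log2 fold change was -0.38, still listed (adjusted p = 0.805), and the 12 h one, -0.35 over all arrays, was -0.13. With the 24 h array of replicate 3 left out as well, which also stood apart from its group over all probe sets, the 24 h value was -0.33 and was not listed.

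Sema4g, a membrane semaphorin, had the highest 12 h fold change. It read 4.65, 4.08, 4.61, 4.00 and 4.33 on the saline arrays, 5.44, 5.10, 4.53, 4.67 and 4.48 at 12 h and 4.80, 4.82, 4.34, 4.05 and 4.40 at 24 h. The 12 h and saline arrays overlapped, since the 12 h arrays of replicates 3 and 5 read below the 2 highest saline arrays. The log2 fold change was 0.51 at 12 h (SE 0.20, adjusted p = 0.966) and 0.15 at 24 h (adjusted p = 0.928). Sema5b, a transmembrane semaphorin with thrombospondin repeats, read 4.40, 5.01, 4.88, 5.00 and 4.91 on the saline arrays, 5.38, 5.11, 5.35, 5.47 and 5.04 at 12 h and 5.62, 4.81, 4.61, 5.25 and 4.95 at 24 h. All 12 h arrays were above all saline arrays, while the 24 h arrays overlapped both. Its 12 h log2 fold change was 0.43 (SE 0.18, adjusted p = 0.966), and 0.32 without the saline array of replicate 1, which lay lowest, where it was not listed.

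Ephb4, the ephrin-B2 receptor of veins and lymphatics, read 5.29, 5.08, 5.19, 5.18 and 5.10 on the saline arrays, 5.03, 5.03, 4.25, 4.87 and 4.63 at 12 h and 5.20, 5.66, 4.50, 5.35 and 4.98 at 24 h. At 12 h it lay below all saline arrays, and at 24 h the groups overlapped with nearly equal means. The log2 fold change was -0.41 at 12 h (SE 0.19, adjusted p = 0.966) and -0.03 at 24 h (adjusted p = 0.990), and it was listed at 12 h in 16 of 26 other settings. Without the 12 h array of replicate 3, the lowest at 4.25, the 12 h value was -0.28 and was not listed. Nor was it listed when any 1 of the saline arrays was left out. All 4 EphB receptors read here had a lower mean at 12 h than in saline cells, with a median log2 fold change of -0.10. Ephb4 alone among them was listed, and Ephb2 has no single-symbol probe set here. The difference of Ephb3 was -0.02 (means 4.83 and 4.85), and its direction rested on the saline array of replicate 3, its highest at 5.21.

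Among the semaphorins listed at 24 h, Sema6a, which signals through A-type plexins, read 3.71, 4.22, 4.39, 4.84 and 4.09 on the saline arrays, 4.18, 4.25, 4.58, 4.36 and 4.91 at 12 h and 4.83, 4.05, 4.75, 5.13 and 4.96 at 24 h. The groups overlapped, and the 24 h log2 fold change was 0.49 (SE 0.22, adjusted p = 0.660). Sema6b, of the same class, had 5.30, 5.50, 5.44, 5.70 and 5.57 on the saline arrays, 5.40, 5.57, 5.89, 5.68 and 5.62 at 12 h and 5.56, 6.43, 5.69, 5.84 and 5.70 at 24 h. The groups overlapped. Its 24 h log2 fold change was 0.34 (SE 0.16, adjusted p = 0.696). The 24 h array of replicate 2 was the highest of all, and without it the log2 fold change was 0.20 and was not listed. Epha3, a receptor for A-type ephrins, was the member listed between the times, with a log2 fold change at 24 h against 12 h of 0.36 (SE 0.14, adjusted p = 0.787). It read 5.01, 5.27, 4.81, 5.08 and 4.70 on the saline arrays, 4.69, 4.55, 5.00, 4.90 and 4.82 at 12 h and 5.23, 4.92, 5.01, 5.28 and 5.32 at 24 h. The means were 4.97 ± 0.22 in saline cells, 4.79 ± 0.18 at 12 h and 5.15 ± 0.18 at 24 h (SD, n = 5 each), and the arrays of the 2 times overlapped. Sema4g at 12 h was listed in 21 and Sema6a at 24 h in 16 of the 25 other settings that held them. Of 26 settings, Sema5b was listed in 23 at 12 h, Sema6b in 13 at 24 h and Epha3 in 24 between the times. Without the saline and 24 h arrays of replicate 3, neither Sema6a (0.53) nor Sema6b (0.37) was listed at 24 h.

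**Figure D2:**
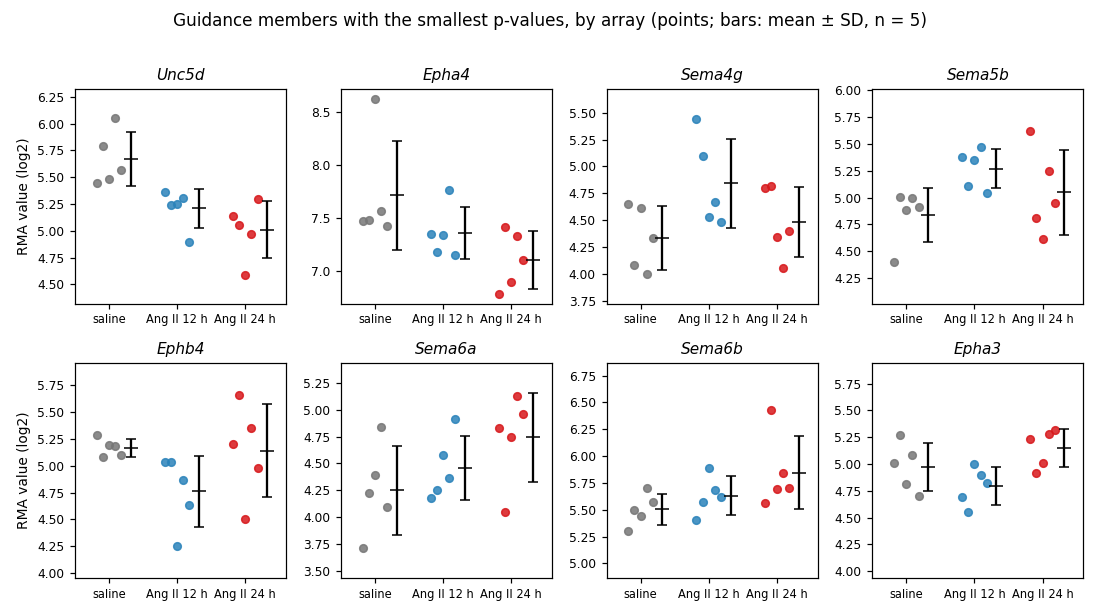
RMA values (y axis, log2) of the guidance genes with an unadjusted p under 0.05 in a comparison, on each array of the saline, 12 h and 24 h groups, with mean ± SD (n = 5). Unc5d reads lower on every Ang II array than on every saline array, and Epha4 has 1 saline array, at 8.62, above the others.

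The groups that did not overlap were counted without regard to p. At 12 h Sema5b lay above all saline arrays and Ephb4 and Unc5d below them, 3 of 63 members (4.76%, against a background of 0.689% of all probe sets). At 24 h 0 members lay above and 2, Epha4 and Unc5d, below (3.17%, background 1.07%), and no member was apart between 24 h and 12 h (background 1.2%, made up of 0.554% higher and 0.648% lower). The higher and lower counts had backgrounds of 0.365% and 0.324% at 12 h, and of 0.486% and 0.585% at 24 h.

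The promoter of Epha4 is shown because its 24 h difference was the largest in size among the receptors with an entry in the promoter table, and that of Sema4g because its 12 h difference was the highest of the ligands. Both are the 250 bases before the annotated start, from RefSeq on GRCm38.p6, with matches to the searched motifs in capitals. The Epha4 stretch is on the minus strand of chr1:77515089-77515338 and holds 2 N-box matches, and the Sema4g stretch is on the plus strand of chr19:44989094-44989343 and holds 1.
Epha4: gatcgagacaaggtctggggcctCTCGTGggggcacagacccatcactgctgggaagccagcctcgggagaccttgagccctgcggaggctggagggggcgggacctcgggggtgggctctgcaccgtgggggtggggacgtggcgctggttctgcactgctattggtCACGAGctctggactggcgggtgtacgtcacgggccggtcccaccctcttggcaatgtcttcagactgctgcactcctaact
Sema4g: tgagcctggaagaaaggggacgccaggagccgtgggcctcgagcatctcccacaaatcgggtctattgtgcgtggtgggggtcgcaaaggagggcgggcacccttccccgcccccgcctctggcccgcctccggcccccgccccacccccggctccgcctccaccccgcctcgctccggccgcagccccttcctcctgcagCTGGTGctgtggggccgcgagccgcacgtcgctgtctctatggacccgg

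The motifs were searched on both strands in the promoters of 54 of the 63 members that had an entry, 67 entries in all. Unc5d has none. The E-box CACGTG, a site of Myc, was in 4 of the 67 member promoters (5.97%, against 6.02% of 32851 promoters), and the N-box CACNAG, bound by Hes repressors, was in 32 (47.8%, against 36.7%). The AP-1 site TGACTCA was in 2 (2.99%, against 4.46%). Hes1 and Myc are shown for scale, since both passed at 24 h, Hes1 at a log2 fold change of -1.30 (adjusted p = 0.00155) and Myc at -0.80 (adjusted p = 0.0320). A match is a description of these letters only, and entries of the same gene were counted separately. A link of Hes1 or Myc to the members was not tested.

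The families were compared by their medians. Of all 63 members, the mean was above that of saline cells for 25 and below it for 38 at 12 h. At 24 h it was above for 30 and below for 32. The median log2 fold change was -0.04 at 12 h and -0.002 at 24 h, beside 0 and 0.004 over all probe sets. Ligands had a median of -0.04 at 12 h and 0.03 at 24 h (19 higher, 13 lower), and receptors -0.04 and -0.02 (11 higher, 19 lower at 24 h). On each array the median of a family's deviations from the saline means was taken. That of the ligands lay between -0.05 and 0.04 on saline arrays, between -0.11 and 0.11 at 12 h and between -0.02 and 0.07 at 24 h. That of the receptors lay between -0.10 and 0.08 on saline arrays, between -0.14 and 0.005 at 12 h and between -0.11 and -0.03 at 24 h. The groups overlapped for both ligands and receptors.

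At 12 h class 3 semaphorins had a median of -0.09 (2 higher, 5 lower) and classes 4 to 7 of 0.001, with 0.03 and 0.08 at 24 h. Ephrins had -0.07 at 12 h (2 higher, 6 lower) and -0.10 at 24 h (3 higher, 5 lower). The 5 A-type ephrins were all lower in mean at 12 h (median -0.09), but for Efna2 and Efna5 this rested on the saline array of replicate 3. On that array Efna2 read 4.15 and Efna5 6.26, with the other saline arrays at 3.07 to 3.50 and 5.38 to 5.51. Their 12 h means were 3.51 and 5.49. The median of all 8 ephrins at 24 h was 0.04 without the saline array of replicate 3. Plexins had medians of 0.01 and -0.08, EphA receptors -0.02 and -0.002, and Robo receptors -0.05 and -0.02. Slits, of 3 members, had 0.19 and 0.08, netrins -0.05 and 0, and Unc5 receptors -0.05 and -0.02. In each of the 10 families the per-array medians of saline, 12 h and 24 h arrays overlapped.

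**Figure D3:**
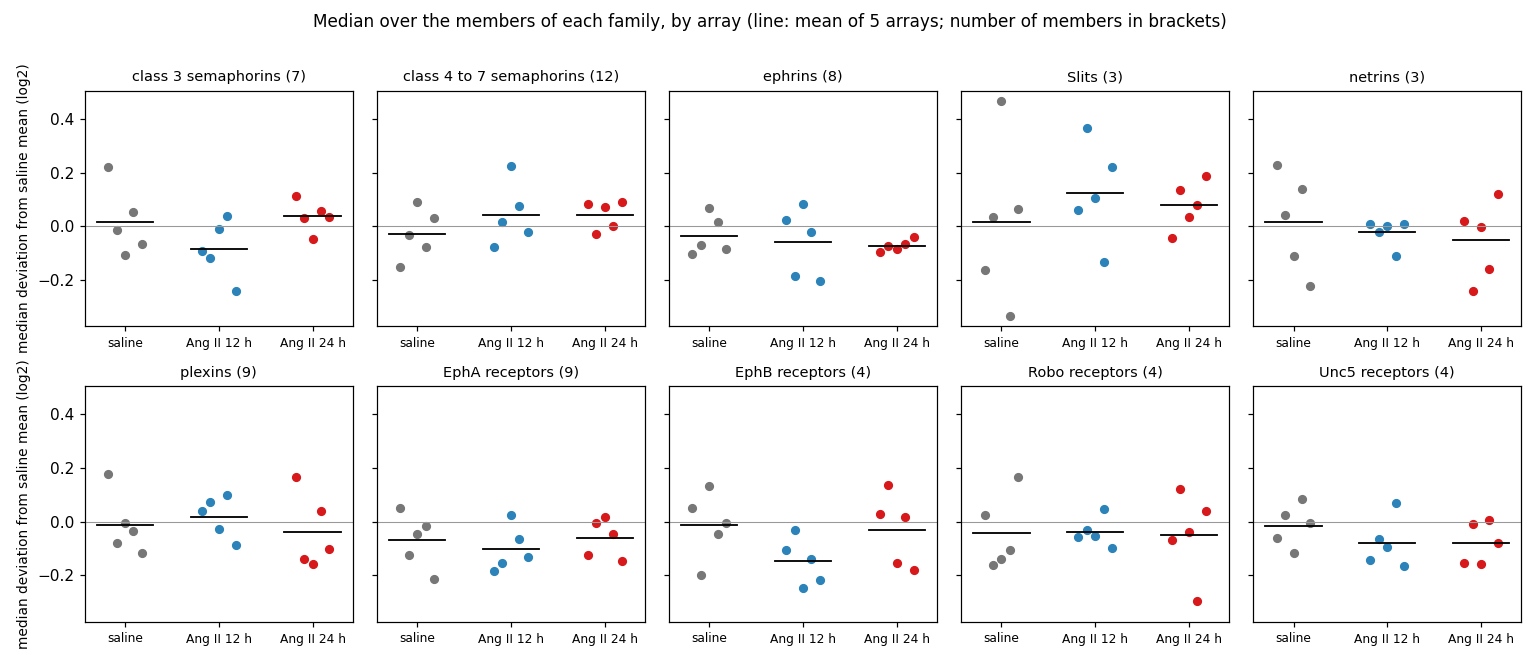
Median of each family's values on each array as deviations from each gene's saline mean (y axis, log2), for the saline, 12 h and 24 h groups. Each point is 1 array and each line the mean of 5. Points of the 3 groups overlap in every family.

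The members with known roles in endothelium are described by name. Sema3a, a secreted semaphorin that repels through neuropilin-1 and A-type plexins, read 10.10, 9.77, 9.65, 9.64 and 9.30 on the saline arrays, 9.60, 9.64, 9.68, 9.84 and 9.26 at 12 h and 9.54, 9.78, 9.66, 9.75 and 9.66 at 24 h. The Ang II and saline arrays overlapped, and its 24 h log2 fold change was -0.01 (95% interval -0.33 to 0.30, adjusted p = 0.995). Sema3f, which acts through neuropilin-2, read 6.56, 5.69, 6.50, 6.23 and 5.91 on the saline arrays, 6.08, 6.53, 6.07, 5.69 and 5.76 at 12 h and 5.51, 5.78, 5.93, 5.99 and 5.78 at 24 h. Its means were 5.80 ± 0.19 at 24 h and 6.18 ± 0.37 in saline cells, a log2 fold change of -0.38 (95% interval -0.77 to 0.01, adjusted p = 0.708). It was listed in 5 of 26 other settings, among them -0.50 without the saline array of replicate 2. Sema3e, the ligand of plexin D1, had a 24 h log2 fold change of 0.15 (95% interval -0.30 to 0.60), the secreted Sema3c and Sema3g of 0.10 and 0.03, and the membrane-anchored Sema7a of 0.02. All of these overlapped with the saline arrays.

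Plxnd1, the endothelial plexin of Sema3e, read 4.62, 4.54, 4.83, 4.54 and 4.57 on the saline arrays, 4.94, 4.31, 5.12, 4.56 and 4.22 at 12 h and 4.70, 4.05, 4.46, 5.06 and 4.73 at 24 h. The values scattered widely in both Ang II groups, around means of 4.60 ± 0.37 at 24 h and 4.62 ± 0.12 in saline cells. Its 24 h log2 fold change was -0.02 (95% interval -0.42 to 0.38). Plxna1, the plexin of the Sema3a pathway in lymphatic valves, had 0.02 (95% interval -0.29 to 0.33), and Plxnb2, a receptor of class 4 semaphorins, -0.12, with -0.25 at 12 h (adjusted p = 0.966). Of the neuropilins, co-receptors of most class 3 semaphorins, Nrp2 alone was read, since Nrp1 has no single-symbol probe set here. Nrp2 read 3.10, 3.94, 3.84, 4.41 and 3.72 on the saline arrays, 4.12, 3.15, 3.56, 4.57 and 4.02 at 12 h and 3.75, 3.26, 3.54, 3.44 and 3.59 at 24 h, with a 24 h log2 fold change of -0.29 (SE 0.24, adjusted p = 0.859).

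In the ephrin axis, Efnb2, the ligand of EphB4, read 5.35, 4.23, 4.39, 4.52 and 4.87 on the saline arrays, 4.93, 3.85, 4.79, 5.32 and 4.61 at 12 h and 4.96, 4.65, 4.96, 4.67 and 4.64 at 24 h. Its groups overlapped, and the 24 h log2 fold change was 0.10 (95% interval -0.38 to 0.59, adjusted p = 0.958). Efnb1, another transmembrane ephrin, had -0.21 at 24 h. Efna1, an A-type ephrin of endothelium, had -0.23 (95% interval -0.59 to 0.12, adjusted p = 0.824), and its receptor Epha2 0.06 (95% interval -0.39 to 0.51). With all 15 arrays none of these was listed at either time. Efna1 moved with the arrays of replicate 3: its 24 h value was -0.36 and listed without the 24 h array, and -0.47 and listed without both that and the saline array. Without the saline array of replicate 1 it was -0.14, and without the 24 h array of replicate 1 it was -0.13.

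Robo4, the endothelial Robo, read 4.85, 4.68, 4.88, 4.59 and 5.49 on the saline arrays, 4.89, 4.80, 4.91, 5.00 and 4.98 at 12 h and 5.33, 5.86, 4.90, 4.86 and 4.85 at 24 h. The 24 h array of replicate 2 was above all saline arrays, replicate 1 above all but 1 of them, and the other 3 lay among them. Its 24 h log2 fold change was 0.26 (95% interval -0.14 to 0.67, adjusted p = 0.826), which was 0.09 without the 24 h array of replicate 2 and 0.41, and listed, without the saline array of replicate 5. Slit2, a secreted Robo ligand, had -0.20 at 12 h and 0.08 at 24 h, and its receptor Robo1 had 0.12 and -0.09. Unc5b, the Unc5 receptor of endothelium, read 6.33, 6.37, 6.07, 6.47 and 6.39 on the saline arrays, 6.35, 6.48, 6.21, 6.45 and 6.26 at 12 h and 6.24, 6.31, 5.97, 6.67 and 6.37 at 24 h. It had a 24 h log2 fold change of -0.01 (95% interval -0.31 to 0.28), beside the -0.66 of Unc5d. The ligands Ntn1 and Ntn4 had 0.05 (95% interval -0.23 to 0.32) and 0.00 (95% interval -0.37 to 0.37) at 24 h.

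**Figure D4:**
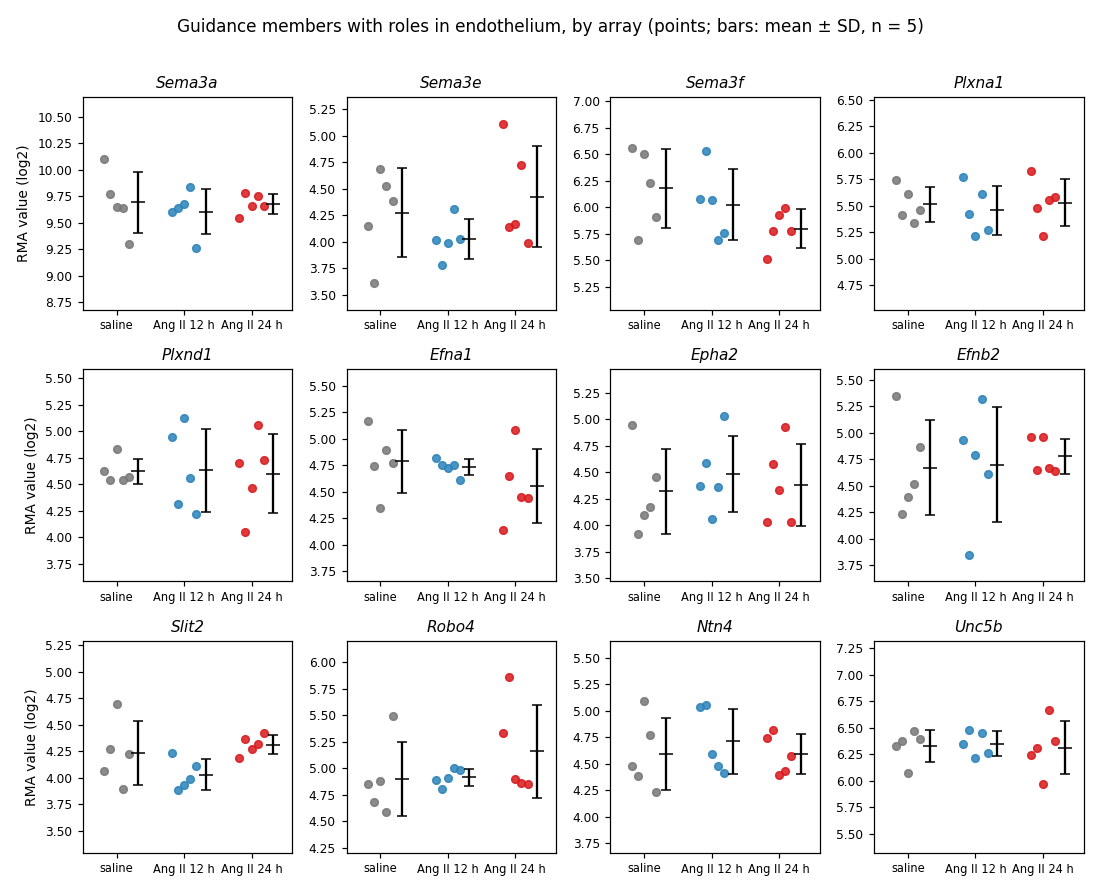
RMA values (y axis, log2) of 12 guidance genes with roles in endothelium on each array of the saline, 12 h and 24 h groups, with mean ± SD (n = 5). The points of the 3 groups overlap in every panel.

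Downstream and cooperating genes were taken from lists. Of 27 co-receptors and modulators, 25 were measured. With an unadjusted p under 0.05 there were 0 at 12 h (background 4.91%) and 0 at 24 h (background 7.1%). Their median log2 fold change was -0.04 at 12 h and -0.01 at 24 h. Of 44 intracellular transducers, 41 were measured, and none passed an adjusted p of 0.05 (smallest 0.553). At 12 h 1 was listed as higher (2.44%, background 2.51%) and 0 as lower. At 24 h 0 were listed as higher and 4 as lower (9.76%, background 3.46%), and between 24 h and 12 h 2 were listed as lower (4.88%, background 2.92%), Rnd1 and Ablim3. Rnd1, which binds plexins, read 4.55, 4.77, 4.44, 4.41 and 4.05 on the saline arrays, 4.90, 4.87, 4.81, 5.00 and 5.14 at 12 h and 4.74, 4.19, 4.67, 4.73 and 4.70 at 24 h. All 12 h arrays lay above all saline arrays, and the log2 fold change at 12 h was 0.50 (SE 0.15, adjusted p = 0.934). Rnd3, its relative, had means of 8.06 ± 0.34 at 24 h and 8.50 ± 0.23 in saline cells, a log2 fold change of -0.45 (SE 0.17, adjusted p = 0.598). Enah, an actin regulator of the Ena/VASP family that acts below Robo receptors, had 7.01 ± 0.21 at 24 h and 7.43 ± 0.17 in saline cells, a log2 fold change of -0.42 (SE 0.14, adjusted p = 0.553). Ablim3, an actin-binding LIM protein, had 6.86 ± 0.12 at 24 h and 7.26 ± 0.14 in saline cells, with no overlap and a log2 fold change of -0.40 (SE 0.16, adjusted p = 0.628). The fourth lower gene at 24 h, Ablim1, was outside the naming rule and was named after its values were seen.

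As a mark of low signal, the 95th percentile was taken of 487 probe sets for genes seldom active in endothelium (defensins, keratin-associated proteins, and receptors for taste, trace amines and pheromones). It was 6.26, and 3227 of all probe sets (14.5%) and 7 of 63 members (11.1%) had a mean above it. These 7 were Sema3a, Sema4b, Efna3, Slit3, Epha4, Ephb1 and Unc5b. A value below the mark is no evidence that a gene was silent, because probe sets differ in brightness. Of 15 endothelial and lymphatic markers, all measured, 1 (Ccl21a) was above it. Their summed log2 values ranged from 67.5 to 69.9 in saline cells, from 68.9 to 71.2 at 12 h and from 69.6 to 71.5 at 24 h. Kdr and Reln were listed as higher and Vwf as lower at 24 h before adjustment (smallest adjusted p of the list 0.553). Markers of epithelium (Krt8 and Krt18, 2 of 4), neurons (Map2 and Snap25, 2 of 4) and leukocytes (Ptprc, 1 of 4) were above the mark, and 0 of 6 fibroblast and 0 of 5 smooth muscle markers were. Among these lists Ptprc was listed as higher at 24 h, Epcam as lower at both times, Dcn as higher at 12 h and Lum as higher at 24 h, with a smallest adjusted p of 0.553. The part of these markers in the members' values was not tested. The study identified the cells by other means, immunostaining for LYVE-1 and VEGFR-3 proteins, and reported LYVE-1, VEGFR-3 and Prox1 mRNA by qPCR. The 2 arrays that stood apart from their groups over all probe sets were the saline and the 24 h arrays of replicate 3, and values without them are given beside Epha4, Efna1, Sema6a and Sema6b.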

How the data were processed

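Expression was measured in 15 samples of cultured murine LECs, 5 in each of 3 groups, which were assigned by their labels. Values came from 15 columns, 1 for each sample. The authors extracted RNA with TRIzol, scanned Affymetrix arrays, made signal files with GCOS and applied RMA. Each of 22206 probe sets has 1 log2 value per array in what they deposited. The version of GCOS and the genome build are not given in the sources used here, and no filter is stated. The methods name an array design other than the one the probe set IDs belong to, and they also give a lower Ang II concentration beside the 500 nM of the labels.

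The deposited values were tested as given with limma 3.58.1 in R 4.3.3, by an F test and 3 contrasts with 1 spread estimate (8.03 prior degrees of freedom) and Benjamini-Hochberg adjustment over all probe sets. The code was tested on simulated data. The members and lists were chosen with earlier results of these data known. Named were members with an unadjusted p under 0.05 (up to 8 a comparison), members of an endothelial list, Nrp2, and up to 4 genes of each list of co-receptors and transducers. All other members are given by counts and ranges. The number of arrays limits the precision, and intervals are at 95%. Alternatives were intensity filters, normalizations, moderation settings, array weights, a replicate block, Duncan's test, 2-group fits and leaving out arrays. Promoters came from RefSeq.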

Additional observations from a re-analysis of the deposited data

Results flagged for a closer look

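Within a group of 5 arrays, the highest or lowest value was compared with its nearest neighbour for the 32 named probe sets. In 96 sets of 5 values, 6 held 1 value that lay far from the others, where chance gives about 1 in 20. For Unc5d the 12 h array of replicate 5 was lowest at 4.90, with the nearest at 5.24. Epha4 was highest at 8.62 on the saline array of replicate 3, with the next at 7.56. Sema5b was lowest at 4.40 on the saline array of replicate 1, with the next at 4.88. Plxnd1 was highest at 4.83 on the saline array of replicate 3, with the next at 4.62. Among the other pathway genes, Rnd1 was lowest at 4.19 on the 24 h array of replicate 2, with the next at 4.67, and Rnd3 at 8.0 on the 12 h array of replicate 2, with the next at 8.30.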

How the results depend on the processing

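Results were recomputed in 26 other settings, 15 of which left out 1 array. No member passed the adjusted p in any of them. Among 1711 single-gene values, 0 passed the adjustment. A move by 1 SD was counted only for values with an unadjusted p of at least 0.05 over all arrays, and 10 of these moved. The 15 single-gene values with an unadjusted p under 0.05 were judged by sign and adjusted p only. They kept their sign in every setting that gave them, but their size could change. Epha4 at 24 h, -0.61 over all arrays, was -0.33 without both arrays that stood apart. Of 518 family medians, 16 moved by more than 1 SD of the arrays, and 13 of 20 family medians had the opposite sign in at least 1 setting. The counts of members with an unadjusted p under 0.05 changed as follows. The share of all probe sets was not taken in the other settings. Whether a changed count concerns the members or the whole array therefore cannot be told. In the F test there were 2, and 4 with both arrays that stood apart left out; leaving out 1 array gave 2 to 5, with 4 without saline replicate 1 or 12 h replicate 3 and 5 without 24 h replicate 2. At 12 h there were 4, and 2 to 5 without 1 array, with 2 without saline replicate 4. At 24 h there were 4, and 3 to 5 without 1 array. Without both arrays there were 2, Unc5d and Efna1, of which Efna1 was not among the 4. Between 24 h and 12 h there was 1, and 2 without moderation, 3 with array weights, 2 in the 2-group fit, 4 without both arrays and 1 to 4 without 1 array, with 2 without saline replicate 3, 12 h replicate 2 or 24 h replicate 3, 3 without 12 h replicate 5 and 4 without 12 h replicate 1, 24 h replicate 1 or 24 h replicate 2. The ligand median at 24 h, 0.03, was -0.008 on probe sets above the median intensity and 0.016 to 0.067 without 1 array. The causes were not tested. The labels do not say whether the replicate numbers pair the arrays, and no sign of pairing was seen over all probe sets. The residuals of same-numbered arrays of different groups correlated between -0.04 and 0.05, those of other numbers between -0.05 and 0.06. Of the 15 same-numbered pairs 0 were above 0.1. A pairing that touched few genes would not show in these values. With the replicate block, 4 members were listed in the F test, 4 at 12 h, 4 at 24 h and 3 between 24 h and 12 h. Duncan's test and the 2-group fits give no F test value. Low signal limits these results, since 56 of 63 members had a mean at or below the mark of the silent families.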
